A study of Danio rerio with 12 samples.

Results

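The comparison described here set gill RNA of adult zebrafish (Danio rerio) kept for 96 h in water with nickel oxide (NiO) nanoparticles at 17.5 mg/L against gill RNA of untreated control fish. Its members were the 3 NiO arrays and the 3 control arrays, chosen by their sample titles, which made 6 of the 12 arrays of the series. The other 6 arrays held gill RNA of fish given copper oxide (CuO) particles at 0.2 mg/L or zinc oxide (ZnO) particles at 4.8 mg/L for the same time, with 3 arrays per group. Gills of 10 fish were pooled for each array, and no fish, control or exposed, was fed during the exposure. The sources used here give neither strain nor sex, and no knocked-out or transgenic line was named. A pool averages over its fish, so the 3 arrays of a group show the spread between pools and not between fish. Within each group the pools were numbered 1 to 3.

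The gill is the organ with which a fish takes up oxygen, exchanges ions and ammonia with the water and first meets dissolved metals and particles. Nickel oxide particles can release nickel ions. From work on cultured mammalian cells, nickel is known to interfere with iron-dependent dioxygenases, among them the enzymes that mark the hypoxia-inducible factor HIF for destruction, and in fish it is known to compete with magnesium and calcium at uptake sites. Metallothioneins, which bind metal ions, inducible chaperones, which refold damaged proteins, and antioxidant enzymes are the usual markers of a cell's answer to metals.

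All levels below are log2 of the spot signal after subtracting log2 of the 75th percentile on the same array, so a level of 0 lies at that percentile, and differences are in the same log2 units. The fit tested 12617 genes, and 75.5 to 88.3% of probes per array were well above background. Keratin 4 (krt4), a marker of fish surface epithelium, stood at 3.60 to 3.96 on the controls and 4.84 to 5.22 on the NiO arrays, and the ammonia channel gene rhbg at 1.94 to 2.01 and 2.99 to 3.27, so both labelled gill groups held transcripts of gill epithelium. RNA of other tissues was present too. The median of 43 oocyte and early germ cell genes was 1.79 to 1.91 on the controls, 0.91 on NiO 1, -2.93 on NiO 2 and -3.22 on NiO 3. The median of 76 eye genes was 0.64, 1.03 and -5.40 on controls 1, 2 and 3, and 1.90, -4.83 and 1.89 on NiO 1, 2 and 3. NiO 1 correlated over all genes with the controls at r = 0.841 to 0.924, and with NiO 2 and NiO 3 at 0.820 and 0.926. Group labels rest on the scanner file linked to each sample. A deposited table of the series holds the same arrays with 10 of its 12 columns under another sample's name, the sources used here do not settle which link is right, and 0 genes were called by limma with the table's names, with 553 at an unadjusted p under 0.05. Each slide held 1 array of every group, and each group lay at 1 position on every slide, so position and group cannot be told apart. In pooled tissue, fewer cells of a type and less RNA per cell cannot be told apart.

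Under NiO, 1294 genes rose (10.3% of those tested) and 1517 fell (12%) by limma at a Benjamini-Hochberg adjusted p under 0.05. A gene that passed is called changed below. For 1281 of the rises (10.2%) and 1501 of the falls (11.9%), all 3 NiO arrays lay beyond all 3 controls. With no test at all, the arrays were so separated for 2888 genes (23%) upward and 2458 genes (19.6%) downward of 12559 with all 6 values, so separation by itself was common. Falls were larger than rises. At least 8-fold changes numbered 46 upward and 395 downward. Among the separated falls the median difference from the control mean was -1.49 on NiO 1, -2.51 on NiO 2 and -2.30 on NiO 3, and NiO 1 was the array nearest to the controls for 73.9% of them. Among the separated rises these medians were 1.34, 1.61 and 1.49, and NiO 1 was nearest for 53.3%. A difference of at least 2-fold on every NiO array was reached by 855 of the rises and 1155 of the falls, and one of at least 4-fold by 108 and 307. The counts depended on single arrays. There were 941 rises and 1398 falls without NiO 1, 310 and 639 without control 3, 690 and 1026 without control 1, 711 and 1014 without NiO 2 and 566 and 908 without NiO 3. In every one of the 12 fits that left out 1 array, 271 of the 1281 rises (21.2%) and 620 of the 1501 falls (41.3%) kept their call, and many genes named below are among these. With the mean level of the oocyte genes on each array as a covariate, 0 genes were called by limma and 700 passed an unadjusted p under 0.05, against 4626 without it. Those 4626 are of 12617 genes tested, and the counts of lists at this threshold given below are to be read beside that share. That mean was 1.49 to 1.77 on the controls, 0.31 on NiO 1 and -2.16 or lower on every other exposed array. The covariate thus ran closely with the exposure, and this fit cannot tell the 2 apart.

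The 12 called rises with the widest gap between the highest control and the lowest NiO array were of genes with varied roles and were led by ucp3. The uncoupling protein gene ucp3, whose product sits in the inner mitochondrial membrane, stood at 0.87, 0.67 and 0.19 on controls 1, 2 and 3 and at 3.51, 4.70 and 4.02 on NiO 1, 2 and 3. Every NiO array was far above every control, and the difference of 3.50 ± 0.38 (SE, 3 arrays per group) is an 11.3-fold rise (limma, adjusted p = 0.00244). This SE and those below come from the limma fit to all 12 arrays, with the spread of a gene pooled over the 4 groups. The pyruvate dehydrogenase kinase gene pdk2b, whose product slows the entry of pyruvate into mitochondria, read 0.27, 0.44 and 0.57 on the controls and 2.72, 3.70 and 3.08 under NiO. Its difference was 2.74 ± 0.28, or 6.69-fold (adjusted p = 0.00222), the lowest adjusted p among the genes named here, shared with asic1a below. The p38-activated kinase gene mapkapk3 rose from -1.59 to -1.0 on the controls to 1.17, 2.03 and 1.75 under NiO (7.93-fold, adjusted p = 0.00244). The phospholipase C gene plcb3 rose from -5.69 to -4.79 to between -2.49 and -1.53 (8.57-fold, adjusted p = 0.00291).

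The membrane-bound protease gene tmprss13b was even across pools, at -1.84 to -1.63 on the controls and 0.86 to 1.5 under NiO (7.63-fold, adjusted p = 0.00671). The myosin chaperone gene unc45b stood at -2.1 to -0.47 and 1.95 to 3.39, a difference of 3.83 ± 0.69 or 14.2-fold (adjusted p = 0.0071). The Wnt ligand gene wnt4b rose 18.6-fold, from -7.20 to -6.17 to -3.67, -1.03 and -2.64 (difference 4.22 ± 0.61, adjusted p = 0.00422). Its difference was 4.83 without NiO 1 and 3.51 without NiO 2. The adenylate kinase gene ak8 rose 9.29-fold (adjusted p = 0.00995). All of these kept their calls in every fit that left out 1 array. The natriuretic peptide gene nppal, of a family of heart hormones that act on salt balance, was uneven, at -5.22, -7.40 and -5.18 on the controls and -2.99, 2.04 and -1.92 under NiO. Its difference of 4.98 ± 1.18 (adjusted p = 0.0165) was 4.24 without control 2, 5.99 without NiO 1 and 3.48 without NiO 2. Among the rest of the 12 widest gaps, the threonine dehydrogenase gene tdh2 rose by 3.12, the neuropeptide gene npb by 3.93 and the actin-related gene actl6b by 3.1. The call of tdh2 was lost without control 3 (2.37, adjusted p = 0.0521), that of npb without control 3 or NiO 3 (2.90 and 3.91) and that of actl6b without control 1, control 3, NiO 2 or NiO 3 (2.84, 3.05, 2.86 and 3.22), and the difference of npb was 4.75 without control 1.

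**Figure D1:**
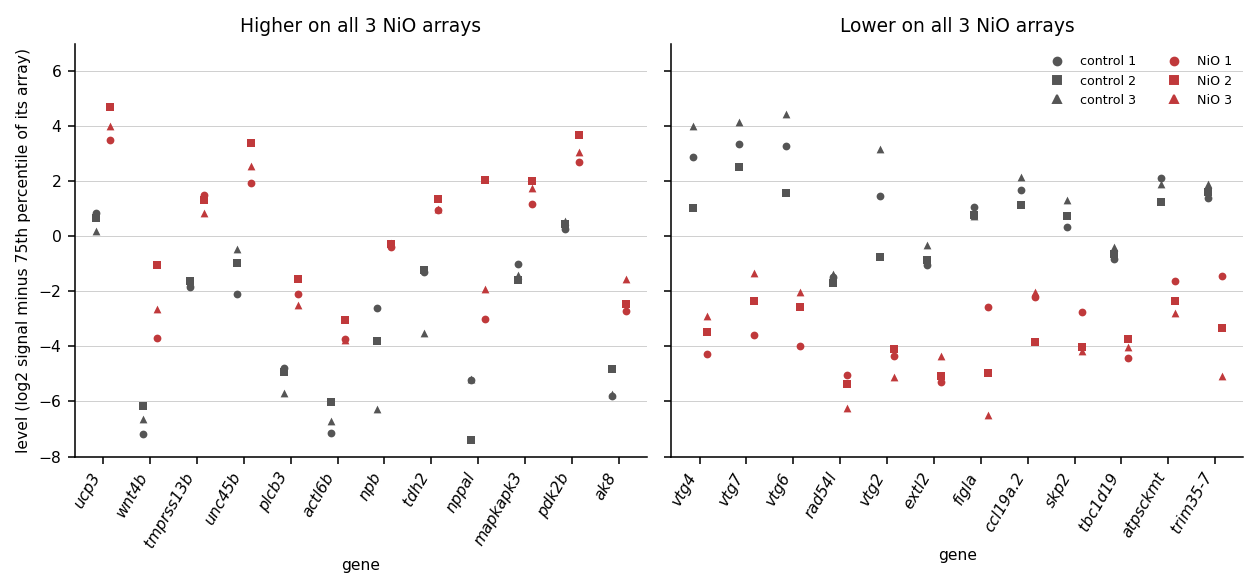
Level of the 12 genes with the widest gap upward (left) and the 12 downward (right), in log2 units against the 75th percentile of each array, for the 3 control arrays (grey) and 3 NiO arrays (red), with 1 point per array. The 2 colours do not overlap for any gene, and ucp3 lies at 0.19 to 0.87 on the controls against 3.51 to 4.70 under NiO.

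The 12 widest gaps downward included 4 vitellogenin genes, described further on. The recombination gene rad54l, which acts in repair of DNA breaks, stood at -1.49, -1.68 and -1.37 on the controls and -5.02, -5.37 and -6.24 under NiO. The controls spread little, and the difference of -4.03 ± 0.64 was a 16.3-fold fall (limma, adjusted p = 0.00541). The F-box gene skp2, whose product marks cell cycle inhibitors for destruction, fell 21.9-fold, from between 0.33 and 1.34 to -2.74, -4.03 and -4.16 (adjusted p = 0.00389). The glycosyltransferase gene extl2 fell 17.9-fold, from between -1.04 and -0.32 to between -5.29 and -4.35 (adjusted p = 0.00332), and NiO 1 was its lowest array. NiO 1 was also the lowest for tbc1d19, a gene with a Rab GTPase-activating domain, at -4.43 against -3.72 and -4.03 on NiO 2 and 3 and -0.83 to -0.40 on the controls (10.9-fold, adjusted p = 0.00389). The lysine methyltransferase gene atpsckmt, which modifies a subunit of mitochondrial ATP synthase, fell 16.1-fold (adjusted p = 0.00333). The chemokine gene ccl19a.2, of a family that guides lymphocytes and dendritic cells, stood at 1.70, 1.14 and 2.17 on the controls and -2.22, -3.84 and -2.04 under NiO, a 20.6-fold fall (difference -4.37 ± 0.76, adjusted p = 0.00651). The oocyte transcription factor gene figla fell by 5.54 ± 0.81, or 46.6-fold, and the tripartite motif gene trim35-7 by 4.92 ± 0.79, or 30.3-fold. Both were graded over the NiO arrays, figla at -2.57, -4.98 and -6.51 and trim35-7 at -1.43, -3.34 and -5.07. Their differences were -6.60 and -5.84 without NiO 1 and -4.63 and -4.02 without NiO 3.

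Vitellogenins, the yolk proteins that the liver makes under oestrogen and sends to the ovary through the blood, were called lower under NiO in 4 of the 5 genes tested. The gene vtg4 stood at 2.88, 1.05 and 4.03 on the controls and -4.29, -3.49 and -2.88 under NiO, a difference of -6.21 ± 0.96 or a 73.8-fold fall (limma, adjusted p = 0.00508). The gene vtg6 stood at 3.28, 1.59 and 4.44 against -3.99, -2.56 and -2.0, a 62-fold fall (adjusted p = 0.00422). For vtg7 the levels were 3.36, 2.52 and 4.17 against -3.59, -2.36 and -1.32, a 54.7-fold fall (adjusted p = 0.00827). For vtg2 they were 1.48, -0.77 and 3.19 against -4.36, -4.1 and -5.1, a 56.6-fold fall (adjusted p = 0.00422). The 7 tested probes of vtg2 all fell, by differences from -9.55 to -0.93. Every NiO array was below every control in these 4 genes, and NiO 1 was the lowest of the 3 for vtg4, vtg6 and vtg7. The falls of vtg4, vtg6 and vtg2 were -7.01, -6.71 and -6.86 without control 2 and -5.52, -5.29 and -4.88 without control 3. The fifth gene, vtg5, named after its values were seen, did not pass, at 2.98, 0.67 and 3.79 on the controls and 0.24, 2.28 and 0.96 under NiO (difference -1.32 ± 0.74, adjusted p = 0.225). These genes are near copies of one another, so a probe may read more than 1 of them.

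The egg coat genes, whose zona pellucida proteins surround the egg and are made in zebrafish by the oocyte, behaved differently on NiO 1. All 19 egg coat genes tested were called lower with separated arrays, with a median difference of -6.41, but NiO 1 was the array nearest to the controls in 19 of 19. The genes zp2l1 and zp3a.2 passed the filter on dim probes only through the controls, so they could hardly be called higher. Only 1 of the 3 NiO arrays read zp2l1, zp3a.2 and zp2.5 well above background, and their levels on the dimmer arrays are uncertain. The median level of the 19 genes was 3.97, 4.07 and 4.13 on controls 1, 2 and 3, 2.92 on NiO 1, -4.83 on NiO 2 and -5.23 on NiO 3. The median difference of an egg coat gene from the control mean was -1.15 on NiO 1 and -8.67 and -9.60 on NiO 2 and 3. For vitellogenin genes it was -6.94 on NiO 1 and -5.66 and -5.1 on NiO 2 and 3. The gene zp2.3 shows the pattern, at 5.09, 5.90 and 5.66 on the controls, 4.66 on NiO 1, and -4.83 and -4.71 on NiO 2 and 3. Its call (adjusted p = 0.0326) was lost without control 1, 2 or 3 (-7.41, -7.0 and -7.12), NiO 2 or NiO 3 (-5.58 and -5.63), and its difference was -10.32 without NiO 1. The standard deviation of zp2.3 was 5.44 over the NiO arrays, against 0.42 over the controls and 0.93 over the CuO arrays. The fit pools the 4 groups into 1 spread per gene, so the egg coat calls do not rest on the NiO spread alone. A fit with a separate spread for each group was not run. The gene zp2l2 kept its call in every left-out fit, with a difference of -4.79 ± 0.97 (27.7-fold, adjusted p = 0.00993), or -6.29 without NiO 1, -4.08 without NiO 2 and -4.01 without NiO 3. Over both families, 23 of 24 genes were called lower (95.8%, against 12% of all genes). There were 10 without control 1, 14 without control 2, 6 without control 3, 7 without NiO 2 and 6 without NiO 3.

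**Figure D2:**
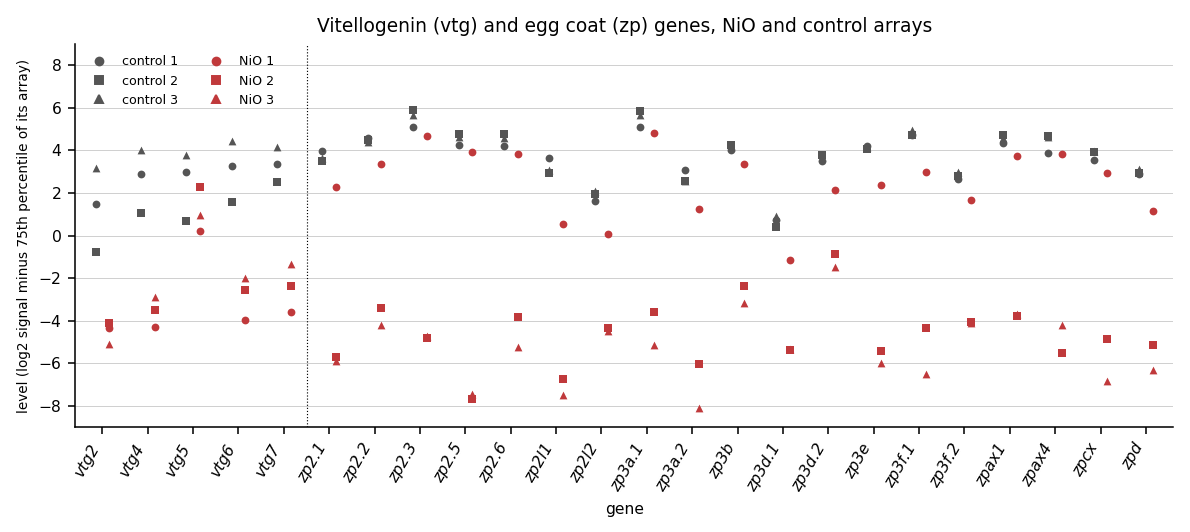
Level of 5 vitellogenin genes (left of the dotted line) and 19 egg coat genes (right) on the 3 control arrays (grey) and the 3 NiO arrays (red), in log2 units against the 75th percentile of each array. On NiO 1 (red circles) 4 vitellogenin genes lie at -4.36 to -3.59, as low as on NiO 2 and 3, and the egg coat genes lie between -1.15 and 4.83, near the controls.

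Of 43 oocyte and early germ cell genes, 29 fell (67.4%, against 12% of all genes) and 2 rose (4.65%, against 10.3%). Their median difference was -4.36 where the median of all genes was 0.27. That median was -5.59 without NiO 1, -3.53 without NiO 2 and -3.43 without NiO 3. The oocyte growth factor gene bmp15 stood at 1.79, 1.68 and 1.83 on the controls and at -0.28, -4.92 and -4.89 under NiO (35-fold lower, limma, adjusted p = 0.00852). Its fall was graded by array, with NiO 1 between the controls and the other NiO arrays, and its difference of -5.13 was -6.67 without NiO 1, -4.35 without NiO 2 and -4.37 without NiO 3. The homeobox gene lhx8a, which acts early in oocyte growth, fell 12.4-fold (adjusted p = 0.00704), by 3.63 with all arrays and with -4.54 as its difference without NiO 1. The histone mRNA binding gene slbp2 fell by 6.65 ± 1.45 (adjusted p = 0.0125), with differences of -8.75, -5.59 and -5.60 without NiO 1, NiO 2 and NiO 3. The list's rises numbered 0 without control 3 and 1 without NiO 2, and its falls 13 without control 1, 16 without control 2, 5 without control 3, 6 without NiO 2 and 6 without NiO 3. The 10 genes named for the largest falls were btg4, zp3f.1, gtf3ab, zp2.3, zp3e, cldnd, retsatl, zp3a.1, zp2.1 and zpcx, with differences from -8.45 to -6.74. Each stood at 1.25 to 4.83 on NiO 1 and at -3.61 or below on NiO 2 and 3. The deadenylation factor gene btg4, a maternal RNA regulator, had the largest, at 4.02, 3.42 and 3.91 on the controls and 1.25, -6.38 and -8.87 under NiO (adjusted p = 0.0151). Its call was lost without control 3 (-8.38) or NiO 2 (-7.60), and its difference was -11.41 without NiO 1 and -6.35 without NiO 3. None of the other 9 kept its call in every fit that left out 1 array, and all 9 differences were larger without NiO 1, from -10.32 to -9.50.

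Most genes of the cell cycle list fell. Of 90 tested, 57 were called lower (63.3%, where 12% of all genes were) and 0 higher by limma, and 70 passed an unadjusted p under 0.05 in either direction. The list's median difference was -2.05, and by array -1.28 on NiO 1, -2.86 on NiO 2 and -2.04 on NiO 3. The condensin gene ncaph, which compacts chromosomes, fell from 1.01, 0.22 and 0.04 to -1.57, -3.09 and -2.93 (7.77-fold, adjusted p = 0.00434). The replication gene gins3 fell from between 2.37 and 2.73 to 0.68, -0.62 and -0.85 (7-fold, adjusted p = 0.00564). The spindle gene kif2c, a microtubule depolymerase, fell 6.45-fold (adjusted p = 0.00595) and the kinetochore gene spc25 fell 8.51-fold (adjusted p = 0.00671). The kinase gene wee2, which holds oocytes in meiotic arrest in mammals and is also in the oocyte list, fell 7.38-fold (difference -2.88 ± 0.50, adjusted p = 0.00651), with a difference of -3.54 without NiO 1. In these genes NiO 1 lay between the controls and the other NiO arrays. Of the 57 falls, 28 kept their call in every left-out fit, and 28 were called without control 3. The oocyte genes moved the same way on the same arrays, and their part in the fall of the cell cycle genes was not tested.

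**Figure D3:**
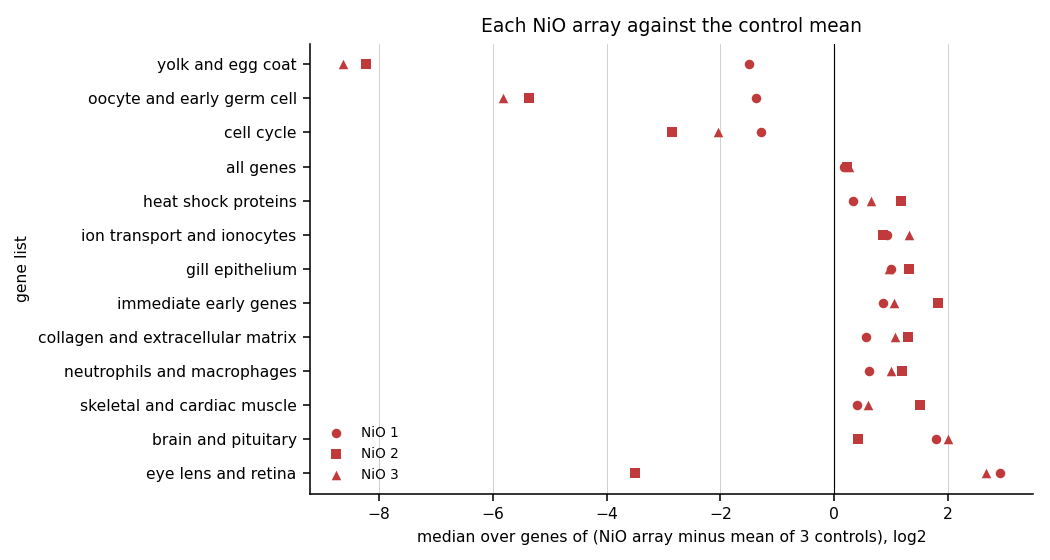
Median over the genes of a list of the difference between each NiO array and the mean of the 3 controls (log2, horizontal axis), for 12 lists and all genes tested, with 1 point per NiO array. In the median of the yolk and egg coat list NiO 1 (circles) lies nearest to the controls (-1.51 against -8.22 and -8.63). This does not hold for 4 vitellogenin genes of that list, which were as low on NiO 1 as on NiO 2 and 3. NiO 2 (squares) stands apart for the eye list (-3.49 against 2.92 and 2.67).

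Of 36 heat shock protein genes, 8 rose (22.2%, against 10.3% of all genes) and 1 fell, and the list's median difference was 0.61. The heat-inducible genes hsp70l, hsp70.3 and hsp90aa1.2 were among the rises. The gene hsp70l stood at 0.08, 0.02 and -0.30 on the controls and 2.44, 2.12 and 2.31 under NiO, a 5.13-fold rise (2.36 ± 0.29, limma, adjusted p = 0.00332). Its relative hsp70.3 stood at 0.60, 0.33 and 0.03 against 2.61, 2.84 and 2.35 (4.85-fold, adjusted p = 0.00277). The inducible HSP90 gene hsp90aa1.2 rose from -1.02 to 0.37 to 2.73, 2.21 and 2.08 (5.82-fold, adjusted p = 0.00458). The co-chaperone gene bag3, which works with HSP70, rose 4.34-fold (adjusted p = 0.0112). These 4 genes kept their calls in every left-out fit, and in the hsp70 and hsp90 genes NiO 1 was as high as NiO 2 and 3. The HSP70 genes are near copies and their probes may share signal. The J-domain co-chaperone gene dnajb1b fell, from 0.33 to 0.54 to between -1.11 and -0.66 (2.57-fold, adjusted p = 0.00896). The count of rises ran from 6 to 10 over the 12 left-out fits.

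Metal-binding and metal-transport genes moved little as groups. Among 18 genes for metallothioneins and zinc carriers 2 were called higher (11.1%, against 10.3% of all genes) and 1 lower (5.56%, against 12%). Only 1 was higher without control 2, control 3, NiO 2 or NiO 3. The metallothionein gene mt2 did not pass, at 4.33, 4.76 and 4.56 on the controls and 3.98, 4.03 and 3.87 under NiO (-0.59 ± 0.29, limma, adjusted p = 0.163), although every NiO array was below every control. Of its 3 probes, 2 had this sign. The metal-responsive transcription factor gene mtf1, which switches on metallothioneins, rose 2.12-fold (adjusted p = 0.024), which did not pass when control 2, control 3, NiO 2 or NiO 3 was left out (1.05, 0.90, 0.98 and 1.15). The zinc importer gene slc39a3 rose from -0.98, 0.59 and -0.12 to 1.78, 1.96 and 1.6 (3.86-fold, adjusted p = 0.00798) and kept its call throughout. The third called gene, the zinc transporter slc39a9, fell (adjusted p = 0.0426) and lost its call in 11 of the 12 left-out fits. Of 24 iron genes, 1 rose and 1 fell (4.17% each). The iron exporter gene slc40a1 (ferroportin) rose from -0.59, 0.64 and 0.44 to 2.19, 1.95 and 2.34, by 2.0 ± 0.38 or 4-fold (adjusted p = 0.00833). The metal importer gene slc11a2, whose product carries iron and other divalent metals, differed by 0.68 ± 0.32 (adjusted p = 0.148), and the transferrin receptor gene tfr1a by -1.32 ± 0.82 (adjusted p = 0.272). Of 25 calcium and magnesium genes, 3 rose and 3 fell (12% each), near the shares of all genes. The hormone gene stc1, whose product stanniocalcin lowers calcium uptake by the gill of fish, rose from -3.62 to -3.04 to -1.28, -1.39 and -0.78 (4.34-fold, adjusted p = 0.0064). The calcium channel gene trpv6 did not pass, at -1.91, -4.43 and -2.02 under NiO and -4.53 to -3.31 on the controls (1.01 ± 1.07, adjusted p = 0.526). Without control 3 the rises in the calcium and magnesium list numbered 1, and without control 1, 2 or 3, NiO 2 or NiO 3 the falls numbered 0. Without CuO 1, 2 or 3 there was 1 such fall. Without NiO 1 the iron list had 2 rises, and without control 1, 2 or 3 or NiO 3 it had 0 falls.

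Genes tied to low oxygen gave a mixed picture. Of 28 hypoxia genes, 6 rose (21.4%, against 10.3% of all genes) and 1 fell (3.57%, against 12%), with a median of 0.55. Their rises numbered 2 without control 1, 1 without control 3 and 1 without NiO 2. The matrix cross-linking gene loxl2b, a HIF target in mammals, rose from -1.63 to -1.29 to -0.15, 0.26 and 0.02 (2.78-fold, limma, adjusted p = 0.0102). The gene pfkfb3, which speeds glycolysis, stood at -0.16, 0.41 and -0.88 on the controls and 1.64, 2.87 and 1.58 under NiO (4.74-fold, adjusted p = 0.0252). That call was lost without control 1, control 3 or NiO 2 (2.27, 1.91 and 1.82). The genes p4ha1a, p4ha2 and pfkfb4b were also called higher, and every tested probe of each was up. Several other genes known as HIF targets did not pass. The prolyl hydroxylase gene egln3 differed by 1.14 ± 0.80 (adjusted p = 0.333), the growth factor gene vegfaa by 0.63 ± 0.39 (adjusted p = 0.27), igfbp1a by 0.32 ± 0.86 (adjusted p = 0.819), ndrg1a by 0.89 ± 0.41 (adjusted p = 0.148) and epoa by -1.83 ± 0.99 (adjusted p = 0.207). All 3 NiO arrays were above all 3 controls for ndrg1a, at 4.1 to 4.25 against 2.77 to 3.55. For lactate dehydrogenase, ldha, the difference was 0.68 ± 0.30 (adjusted p = 0.132) on the probe used and -0.82 on its other probe. At an unadjusted p under 0.05 there were 8 of 30 glycolysis genes, below the share of all genes (4626 of 12617). Of the 30, 5 were called higher by limma (16.7%, against 10.3% of all genes) and 0 lower. Among them pdk2b, described above, had the lowest adjusted p. The count of glycolysis rises was 1 to 3 without control 1, 2 or 3, CuO 2, NiO 1, NiO 2 or NiO 3. Of 23 2-oxoglutarate dioxygenases, 3 rose (13%, against 10.3% of all genes) and 4 fell (17.4%, against 12%). The DNA and RNA demethylase gene alkbh1 fell from 2.80, 3.35 and 3.59 to 1.3, -0.57 and -0.00 (8.02-fold, adjusted p = 0.00449) and was the only one of the 7 that kept its call in every left-out fit. This list had 0 rises without control 3 or NiO 2, 1 without control 2, CuO 1, CuO 2 or NiO 3, and 1 or 2 falls without any 1 control, NiO 2 or NiO 3.

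Antioxidant genes were near the share of all genes. Of 43, 5 rose (11.6%, against 10.3%) and 3 fell (6.98%, against 12%). Antioxidant genes called lower included gpx8 and gstm.1, on every tested probe of each. The quinone reductase gene nqo1, a target of the regulators Nrf2 and AhR, stood at 0.72, 0.63 and 0.18 on the controls and 1.78, 2.13 and 2.61 under NiO (3.16-fold, limma, adjusted p = 0.0127), and missed the threshold only without control 3 (1.5, adjusted p = 0.0575). The heme oxygenase gene hmox1a was high on NiO 2 alone, at -0.76, 1.70 and -0.47 against -1.43 to -0.55 (1.01 ± 0.78, adjusted p = 0.378). The glutathione genes gclc (-0.02 ± 0.44, adjusted p = 0.976) and gstp1.1 (0.88 ± 0.56, adjusted p = 0.281) did not pass. Of 17 aryl hydrocarbon receptor genes, which handle many pollutants, 6 passed an unadjusted p under 0.05 by limma. This is near the share of all genes at that threshold (4626 of 12617). Of the 17, 4 were called higher (23.5%, against 10.3% of all genes) and 0 lower. They included cyp1c1, a monooxygenase, at -0.49, 0.03 and -0.26 against 1.2, 1.28 and 1.28 (2.82-fold, adjusted p = 0.00754). The best known target, cyp1a, differed by 0.54 ± 0.44 (adjusted p = 0.411). The receptor list had 1 rise without control 3 and 2 without NiO 3. The antioxidant list had 1 to 3 rises without control 1, control 3, any 1 CuO or NiO array, ZnO 1 or ZnO 3.

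Of 42 genes of endoplasmic reticulum stress, 6 rose (14.3%, against 10.3% of all genes) and 3 fell (7.14%, against 12%). The falls included manf and sdf2l1, lower on every tested probe, and no fall of this list kept its call in every left-out fit. The membrane protein gene herpud2 stood at -0.82, -0.42 and -0.88 on the controls and 0.91, 1.28 and 0.83 under NiO (3.28-fold, limma, adjusted p = 0.00449), and the calcium-binding nucb2a rose 2.99-fold (adjusted p = 0.0131). The asparagine synthetase gene asns rose 3.84-fold on the probe used (adjusted p = 0.00814), but its other probe differed by -2.73. The main chaperone of this compartment, hspa5, differed by 0.22 ± 0.29 (adjusted p = 0.622) on the probe used and was lower on its other 5 probes. The rises of this list numbered 3 without control 1, 3 without control 3 and 3 without NiO 2, and the falls 0 without control 3 and 1 without control 2, NiO 1 or NiO 2.

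Of 36 markers of the gill's own epithelium, 15 were called higher (41.7%, against 10.3% of all genes) and 0 lower by limma, 34 lay above the median of all genes, and the list's median was 1.23. Its median level was 2.21 to 2.64 on the controls and 3.16 to 3.45 on the NiO arrays, with no overlap. The keratin gene krt17 stood at 3.78, 4.05 and 3.2 on the controls and 4.88, 5.22 and 5.14 under NiO (2.64-fold, adjusted p = 0.0104), krt4 rose 2.39-fold (adjusted p = 0.0105), and krt1-c5 rose 3.81-fold (adjusted p = 0.00637). Keratin genes are alike in sequence and their probes may share signal. The desmosome linker gene ppl (periplakin) rose from 1.71, 0.52 and 0.88 to 2.85, 2.57 and 2.55 (3.08-fold, adjusted p = 0.0105). The count of rises was 9 without control 1, 6 without control 3 and 9 without NiO 3. Oocyte transcripts were lower on the same arrays, and their part in the higher epithelial levels was not tested. On NiO 1, the NiO array with oocyte transcripts, the median epithelial marker was 1.0 above the control mean, against 1.31 and 0.97 on NiO 2 and 3.

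Among 59 genes of ion transport and ionocytes, the gill cells that pump salts, 10 rose (16.9%, against 10.3% of all genes) and 2 fell (3.39%, against 12%). The list's median was 1.19. The potassium channel gene kcnj1a.6 stood at -0.57, -1.24 and -1.35 on the controls and 0.83, 0.76 and 0.55 under NiO (3.4-fold, limma, adjusted p = 0.00826). The membrane carbonic anhydrase gene ca4a rose from -2.17 to -1.29 to -0.18, 0.00 and -0.40 (2.96-fold, adjusted p = 0.0103). For rhbg, an ammonia channel, the controls stood at 1.95, 2.01 and 1.94 and the NiO arrays at 2.99, 3.2 and 3.27 (2.28-fold, adjusted p = 0.0109). The sodium pump gene atp1a1a.5 was uneven, at -5.18, -3.64 and -1.72 against -0.88, 0.42 and 2.22 (4.1 ± 0.94, adjusted p = 0.0148). It lost its call without NiO 3 (3.28), and was 3.26 without control 1, 4.99 without control 3 and 4.83 without NiO 1. The potassium channel gene kcnj1b fell (adjusted p = 0.00816), but only 1 of the 3 NiO arrays read it well above background, so its size is not given. The count of rises was 5 without control 1, 4 without control 3, 6 without NiO 2 and 3 without NiO 3. Of 12 mucous cell genes, 1 rose (8.33%) and 0 fell by limma, with 3 at an unadjusted p under 0.05, and 0 rose without control 1, control 3, NiO 1 or NiO 3.

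Immediate early genes, which cells switch on within minutes of many stimuli, and genes of the extracellular matrix had rises and no called fall. Of 54 immediate early genes, 15 rose (27.8%, against 10.3% of all genes), 0 fell by limma and 29 passed an unadjusted p under 0.05. The list's median was 1.28. The zinc finger gene egr2b stood at -2.55, -1.74 and -2.23 on the controls and -0.33, 0.02 and 0.11 under NiO (4.3-fold, limma, adjusted p = 0.00714). The matricellular gene ccn1 rose from -1.3, -0.76 and -1.12 to 0.45, 1.26 and 1.11 (4-fold, adjusted p = 0.00764), and its relative ccn2a rose 5.85-fold (adjusted p = 0.00966). The gene fosab, a subunit of the factor AP-1, stood at 0.24, 0.46 and 0.49 against 1.69, 3.0 and 2.16 (3.69-fold, adjusted p = 0.0132). The count was 6 without control 1, 4 without control 3, 6 without NiO 2 and 6 without NiO 3. Of 56 collagen and matrix genes, 14 rose (25%, against 10.3%) and 0 fell by limma. At an unadjusted p under 0.05 there were 20, near the share of all genes (4626 of 12617). The collagen-binding proteoglycan gene dcn (decorin) stood at 0.81, 0.42 and 0.72 on the controls and 1.95, 2.54 and 2.58 under NiO (3.26-fold, adjusted p = 0.0064). The fibrillar collagen gene col5a3a rose 5.05-fold (adjusted p = 0.00707), thbs3a 3.35-fold (adjusted p = 0.00817), the basement membrane gene lamb1b 2.98-fold and bgna (biglycan) 2.77-fold (adjusted p = 0.00983 for both). Of the 14, 7 kept their call in every left-out fit, and the count was 7 without control 3 and 8 without NiO 3.

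Of 37 circadian clock genes, 11 rose (29.7%, against 10.3% of all genes) and 0 fell by limma. At an unadjusted p under 0.05 there were 17. The clock repressor gene nr1d1 stood at -3.17, -3.60 and -4.31 on the controls and -0.87, 0.19 and -1.72 under NiO (7.45-fold, adjusted p = 0.00941). The clock kinase gene csnk1e rose from -0.13, 0.27 and -0.09 to 1.5, 1.85 and 1.66 (3.14-fold, adjusted p = 0.00705), and fbxl3a, whose product marks cryptochromes for destruction, rose 2.52-fold (adjusted p = 0.0113). The sources used here give no time of day for sampling. The count was 5 without control 1, 4 without control 3 and 4 without NiO 3. In oxidative phosphorylation 14 of 78 genes passed an unadjusted p under 0.05, below the share of all genes (4626 of 12617). By limma 0 were called lower and 6 higher (7.69%, below the 10.3% of all genes). They included the succinate dehydrogenase gene sdha, from 1.39, 1.87 and 0.85 to 2.74, 3.18 and 2.91 (2.97-fold, adjusted p = 0.00773), the complex I gene ndufa12 (5.52-fold, adjusted p = 0.00492) and the ATP synthase inhibitor gene atp5if1b (3-fold, adjusted p = 0.0126). Without control 1, control 3, NiO 2 or NiO 3, 3 were called. Of 44 proteasome genes 3 rose (6.82%) and 2 fell (4.55%), and 0 did either without control 3. Of 27 cholesterol synthesis genes 1 rose (3.7%) and 3 fell (11.1%), with 6 falls without NiO 1, 1 without NiO 2, and 0 without control 3 or NiO 3. None of 79 ribosomal protein genes was called by limma, 1 passed an unadjusted p under 0.05, and their median differed by 0.15.

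**Figure D4:**
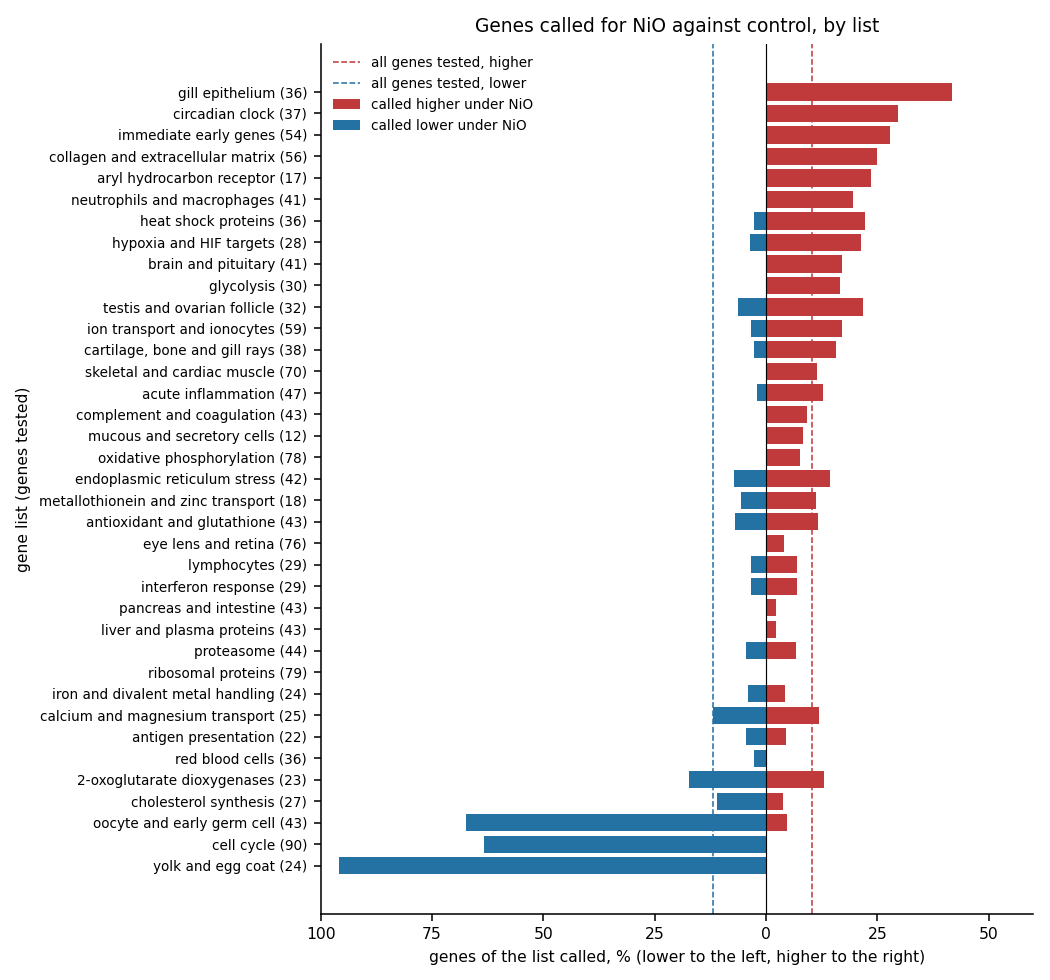
Share of the tested genes of each list shown that was called higher (red, right) or lower (blue, left) for NiO against control by limma at an adjusted p under 0.05, in percent, with the number of genes tested in brackets. Dashed lines mark the shares over all genes tested, 10.3% higher and 12% lower, and only the yolk and egg coat, oocyte and cell cycle lists pass 60% in either direction.

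Inflammatory genes did not move together. Of 47 acute inflammation genes, 6 rose (12.8%, near the 10.3% of all genes) and 1 fell (2.13%, against 12%). The matrix protease gene mmp14a rose from -0.46, 0.16 and -0.22 to 1.1, 1.68 and 1.53 (3.05-fold, limma, adjusted p = 0.0108). The cytokine gene il17a/f2 fell, from -0.05, -0.02 and -0.60 to -2.89, -7.36 and -7.05, a difference of -5.55 ± 1.14 (adjusted p = 0.0103) that was -6.99, -4.75 and -4.91 without NiO 1, 2 and 3. The prostaglandin synthase gene ptgs2a passed narrowly (2.12 ± 0.65, adjusted p = 0.0402) and failed without control 1 (2.04), control 3 (1.48), NiO 1 (2.29), NiO 2 (1.83) or NiO 3 (2.23), without CuO 1 or 2 and without ZnO 2 or 3, with a difference of 2.83 without control 2. The cytokine genes il1b (0.25 ± 0.91, adjusted p = 0.865) and tnfa (-0.44 ± 0.61, adjusted p = 0.638), the acute phase gene saa (1.75 ± 0.68, adjusted p = 0.0901) and mmp9 (1.47 ± 0.77, adjusted p = 0.193) did not pass. For saa, NiO 1 and NiO 2 but not NiO 3 were above every control, at 0.66, 1.97 and 0.18 against -1.15, 0.51 and -1.80. The list had 3 rises without control 1, 10 without control 2, 1 without control 3, 1 without NiO 2 and 2 without NiO 3. Of 41 neutrophil and macrophage markers, 8 rose (19.5%, against 10.3%) and 0 fell by limma, with 17 at an unadjusted p under 0.05. The gene mfap4.1, read in zebrafish as a macrophage marker, stood at -0.47, 0.43 and 0.93 on the controls and 2.43, 3.52 and 2.08 under NiO (5.21-fold, adjusted p = 0.0119). Those rises were 4 without control 1, 1 without control 3, 2 without NiO 2 and 3 without NiO 3. Among 29 lymphocyte markers 2 rose (6.9%) and 1 fell (3.45%), and among 29 interferon genes 2 rose (6.9%) and 1 fell (3.45%). Among 22 antigen presentation genes 1 rose and 1 fell (4.55% each), and among 43 complement and coagulation genes 4 rose (9.3%) and 0 fell. All these shares lie below the 10.3% and 12% of all genes. None of the calls in these 4 lists held in every left-out fit. The interferon rises numbered 4 without control 2 and 5 without ZnO 1, but 0 without control 1, control 3, NiO 2 or NiO 3. The median difference of the interferon list was 0.76, against 0.27 for all genes.

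Markers of other tissues were called in part, some lists above and some below the shares of all genes, 10.3% higher and 12% lower. Of 76 eye genes, 3 rose (3.95%) and 0 fell by limma, with 5 at an unadjusted p under 0.05, and their median differed by 0.65. The list was low on control 3 and on NiO 2, and its median difference turned with the arrays used, at -1.24 without control 3, -0.41 without NiO 1 and -0.36 without NiO 3, but 1.52 without control 1, 1.56 without control 2 and 2.73 without NiO 2. It had 1 rise without control 1, NiO 2 or NiO 3 and 0 without control 3. Of 41 brain and pituitary genes, 7 rose (17.1%), and their median level was -1.97, -1.39 and -3.37 on the controls and 0.24, -1.31 and 0.26 under NiO. The glial filament gene gfap rose from -2.85, -1.6 and -1.62 to -0.28, 0.34 and 0.58 (4.71-fold, limma, adjusted p = 0.00738), the neurofilament gene neflb 2.98-fold (adjusted p = 0.0108) and the opioid peptide gene pdyn by 3.68 ± 0.74 (adjusted p = 0.00981), with 4.43 without control 2. The brain list had 3 rises without control 3 and 4 without NiO 3. Of 70 muscle genes, 8 rose (11.4%), but 5 without control 2, 1 without control 3 and 2 without NiO 3. The list's median level was 1.28 to 1.57 on the controls and 2.13, 3.49 and 2.33 on the NiO arrays. Of 38 genes of cartilage, bone and gill rays, 6 rose (15.8%) and 1 fell (2.63%). The matrix genes matn3a (4.41-fold, adjusted p = 0.00965) and ucmab (6.03-fold, adjusted p = 0.0102), both made by cartilage cells, kept their calls in every left-out fit, and the rises numbered 2 without control 3. Its fall was lost without control 1, control 3, NiO 2 or NiO 3, and there were 2 without control 2. In 32 testis and ovarian follicle genes, 7 rose (21.9%) and 2 fell (6.25%). The falls were of the steroid enzyme genes hsd3b2 and cyp11a1.1, lower on every tested probe, and neither kept its call in every left-out fit. The activin subunit gene inhbaa rose from -1.85 to -1.21 to -0.17, 1.6 and 0.60 (4.73-fold, adjusted p = 0.0104). The steroid enzyme gene hsd17b1 rose 3.71-fold on the probe used (adjusted p = 0.0089), but 2 of its 3 probes had the opposite sign, down to -1.96. That list had 4 rises without control 1, 2 without control 3, 3 without NiO 2 and 2 without NiO 3. Of 43 liver genes 1 rose (2.33%), of 43 pancreas and intestine genes 1 rose (2.33%), and of 36 red cell genes 1 fell (2.78%), all below the shares of all genes. The liver and red cell calls were lost without control 1, control 3, NiO 2 or NiO 3, and the pancreas list had 2 rises without ZnO 1. The pancreatic protease relative prss60.2 rose from -2.08 to -0.78 to 1.09, 0.60 and 1.41 (5.55-fold, adjusted p = 0.00981). Whether more of these tissues or more RNA per cell lay behind any of these rises was not tested.

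The other large rises rested on uneven pools. The leptin gene lepb stood at -7.23, -4.64 and -6.61 on the controls and -3.08, 2.69 and -2.32 under NiO (5.25 ± 1.33, limma, adjusted p = 0.0204). It lost its call without control 1 or 3 (4.72 and 5.03), and was 6.01 without control 2, 6.34 without NiO 1, 3.46 without NiO 2 and 5.96 without NiO 3. The fin fold gene and2, for actinodin, was spread on the controls, at -1.97, -5.35 and -9.18, and stood at -1.50, 0.62 and -1.48 under NiO (adjusted p = 0.0367). Its difference of 4.71 was 6.48 without control 1, 2.87 without control 3 and 4.01 without NiO 2, and the call was lost in 7 left-out fits. The receptor gene illr1 (3.95 ± 1.02, adjusted p = 0.0223), of a zebrafish family of immune lectin-like receptors, lost its call without control 3, NiO 2 or NiO 3 (3.86, 3.63 and 3.77) and was 5.25 without control 1 and 2.75 without control 2. The cilia gene cfap299 (3.79 ± 1.15, adjusted p = 0.0394) lost its call in 5 left-out fits and was 4.39 without control 2 and 4.59 without NiO 1.

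Some genes were well above background on all 3 arrays of the NiO or the control group and on no array of the other. Their fold changes are lower bounds set by the dimmest signal that counted as above background. Of NiO and control, only the brighter group could bring them through the filter on dim probes. Where no CuO or ZnO group did so too, they could hardly be called the other way, so their adjusted p adds little. The muscle cadherin gene cdh15 was at least 7.08-fold higher under NiO (limma, adjusted p = 0.0107), at -4.73, -2.48 and -5.69 against -7.83 to -7.02, and its difference of 3.26 was 2.35 without NiO 2 and 3.95 without NiO 3. The developmental factor gene pax2b was at least 4.04-fold higher (adjusted p = 0.00546), caiap at least 3.52-fold (adjusted p = 0.0067) and the zinc finger gene znf148 at least 3.3-fold (adjusted p = 0.00389). Downward, the odorant receptor gene or42c5 was at least 14.4-fold lower (adjusted p = 0.00704), sgms2b, a sphingomyelin synthase, at least 8.25-fold (adjusted p = 0.00705), the acid-sensing channel gene asic1a at least 8-fold (adjusted p = 0.00222) and the hormone receptor gene gnrhr4 at least 7.56-fold (adjusted p = 0.00997). None of the 3 NiO arrays read these 4 falling genes well above background, and all 3 controls did. Among genes given above with a fold or difference, only 2 of the 3 NiO arrays read btg4, figla, rad54l, retsatl, zp2.1 and zpcx well above background, and only 1 read il17a/f2 and epoa. Only 2 of the 3 controls did so for wnt4b, nppal, actl6b, ndufa12, lepb, and2, illr1 and cfap299. Levels on the dimmer arrays are uncertain there.

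Against the mean of the CuO and ZnO groups, which differ from NiO in dose as well as metal, 0 genes were called by limma (0% of 12617). At an unadjusted p under 0.05 there were 581, where 5% of the genes tested is 631, and the lowest adjusted p was 0.0696. No gene was called for NiO against CuO or against ZnO alone. Doses were 17.5, 0.2 and 4.8 mg/L, so the values of the 3 exposures are set side by side only. All 3 NiO arrays lay beyond all 9 other arrays for 50 genes above (0.396%) and 38 below (0.301%), of which 38 and 16 were also called against the controls. Some genes would be so placed with no difference between the groups, and their expected share was not worked out. These counts alone are therefore not read as a difference between the exposures. The genes of this kind named here were chosen after their values were seen, except where a rule given with the methods named them too. The 95% intervals in this and the next paragraph are not adjusted for that choice. They belong to genes picked from these same values, so an interval that leaves out 0 is no further evidence of a difference. The chaperone hsp70.3 was one, with 1.43 to 1.90 under CuO and 1.29 to 1.38 under ZnO below its 2.35 to 2.84 under NiO (NiO minus their mean 1.07, 95% interval 0.58 to 1.57, adjusted p = 0.336). The kinase gene sgk2b, of a family that acts on ion channels, stood at -2.58, -1.64 and -1.34 on the controls and 0.45, 2.32 and 1.39 under NiO, with CuO at -1.21 to -0.23 and ZnO at -0.99 to -0.32. Its rise over the controls was 9.45-fold (adjusted p = 0.00512). The secretory vesicle gene scamp5a stood at -3.38 to -2.79 on the controls and -1.16, 0.05 and -1.80 under NiO, with CuO at -3.44 to -3.0 and ZnO at -3.76 to -3.54 (4.28-fold above the controls, adjusted p = 0.00965). NiO minus the mean of the other exposures was 2.42 (95% interval 1.62 to 3.23, adjusted p = 0.0986).

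The genes ccl19a.2, kcnk5a and ogfr2 were among the 38 with lower values under NiO than on every other array. The chemokine gene ccl19a.2, described above, read 0.31 to 0.65 under CuO and 2.21, -0.64 and -0.75 under ZnO, so that NiO minus their mean was -3.05 (95% interval -4.51 to -1.6, adjusted p = 0.336). The potassium channel gene kcnk5a stood at 0.85, 0.23 and 0.67 on the controls and -2.26, -1.93 and -1.70 under NiO, with CuO at -0.72 to 0.32 and ZnO at -1.11 to -0.41, a fall of 5.84-fold against the controls (limma, adjusted p = 0.00389). The opioid growth factor receptor gene ogfr2 stood at 1.77 to 2.24 on the controls and 0.37, -0.07 and 0.97 under NiO, with CuO at 1.54 to 2.35 and ZnO at 2.56 to 3.59 (3.03-fold below the controls, adjusted p = 0.0153). NiO minus the mean of the other exposures was -2.09 (95% interval -2.81 to -1.38, adjusted p = 0.0986). All 3 kept their calls against the controls in every left-out fit. Genes could also lie between the controls and the other exposures. The corepressor gene mier3b read 0.76 to 1.14 on the controls, -1.21, -2.99 and -3.28 under NiO and -5.84 to -4.06 on the 6 other exposed arrays (NiO minus control -3.50, or -4.14 without NiO 1, and NiO minus their mean 2.56, 95% interval 1.47 to 3.65, adjusted p = 0.324), and the nucleoside carrier gene slc29a1a read -2.07 to -1.03, -4.61 to -3.78 and -6.35 to -4.87 in the same order (1.44, 95% interval 0.77 to 2.11, adjusted p = 0.336).

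**Figure D5:**
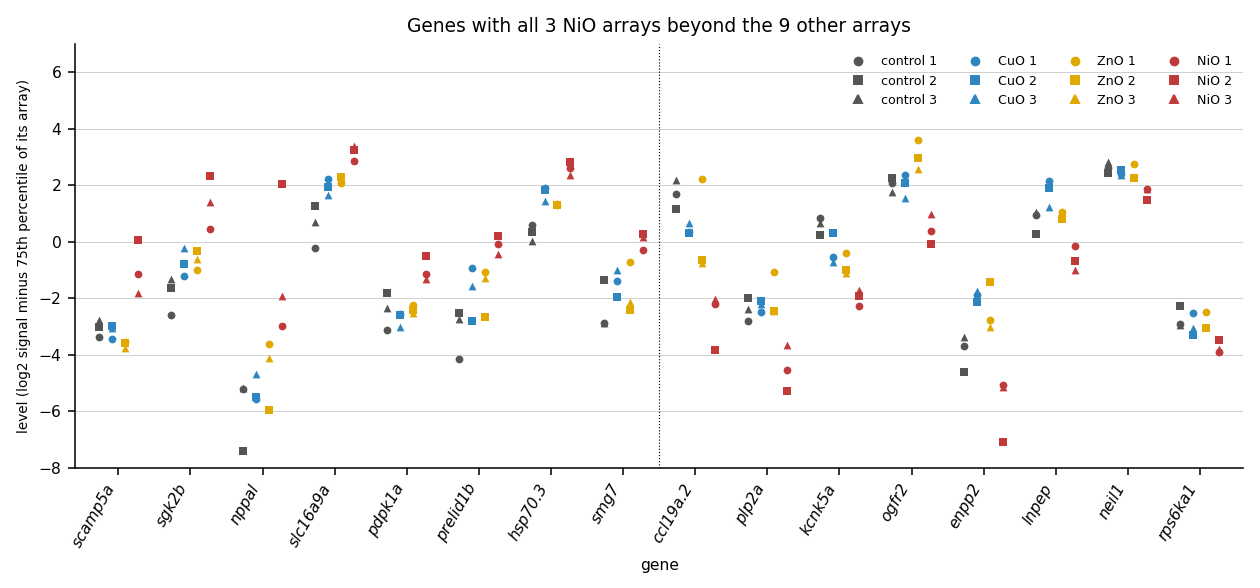
Level of 16 genes whose 3 NiO arrays (red) lay above (left of the dotted line) or below (right) all 9 other arrays, in log2 units against the 75th percentile of each array, with controls in grey, CuO in blue and ZnO in yellow and 1 point per array. For hsp70.3 the NiO arrays lie at 2.35 to 2.84 above every other array, and for kcnk5a at -2.26 to -1.70 below every other array.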

How the data were processed

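Gill RNA of 12 pools of 10 fish was hybridised in 1 colour (Cy3), 1 pool per array, to a zebrafish oligonucleotide array. Per the file headers, the authors' scanner files were made with Feature Extraction 11.5.1.1, and the deposited processed signal intensity is background-subtracted. The submitters' processing notes also name MAS5. A deposited table of the whole series holds the same intensity values, but 10 of its 12 columns hold another array than the one they are named for, and which link is right was not settled. Each array was taken from the scanner file linked to its sample, whose deposited name carries the group of the sample title. The labels mention a dye swap, and the files hold 1 channel.

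Control and outlier-marked spots were left out. Each array's intensity was taken as log2 minus the log2 of its 75th percentile, and spots of a probe were averaged. A probe stayed in where every array of some group (3 arrays) read it well above background (37401 of 43603). Each probe's transcript accession was looked up in a RefSeq gene list, which gave 1 gene symbol for 26094 of all probes and not for 17509. A gene was read from its probe with the highest mean signal, and 12617 genes were tested with limma 3.58.1 in R 4.3.3 over all 4 groups, with Benjamini-Hochberg adjustment. The number of arrays limits the precision. On simulated data for NiO against control, 66 of 100 genes changed by 3 log2 units were recovered, and 4 of 100 changed by 1, with 4 calls among unchanged genes. Far fewer genes changed in the simulation than were called on the real arrays, and its noise was independent between genes. These rates therefore need not hold for the real arrays.

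The first genes named were called, had separated arrays and were well above background on 2 or more arrays of both groups. Of these, the 12 each way with the widest gap and the 10 each way with the largest difference were taken. So were the 6 each way with the lowest adjusted p against the mean of the CuO and ZnO groups. Without that background filter, at most 5 separated rises and 5 separated falls that are lower bounds were added. At most 5 called genes from every one of 38 lists, separated or not, and 31 genes chosen by function, called or not, were added too. Not all of these are printed, and 1 list and some genes are not reported here. The members and lists were chosen with earlier results of these data known. Nothing in the labels says that pools came from separate tanks, and the p-values rest on how pools of a group varied. The numbers 1 to 3 are also the slide and the scan. Same-numbered NiO and control arrays deviated from their group means with r = -0.02, -0.46 and -0.13, so the numbers were not treated as pairs. Alternatives covered scaling, background, filters, probe rule, variance model, slide, tissue covariates and left-out arrays. No sequence is printed.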

Additional observations from a re-analysis of the deposited data

Results flagged for a closer look

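In 4 of the genes named by rule, all 3 NiO arrays lay beyond all 3 controls one way while all 3 arrays of another exposure lay beyond the controls the other way. Among all genes called with separated arrays, 3 were of this kind for CuO and 3 for ZnO. The lysophospholipase D gene enpp2 (autotaxin) stood at -3.70, -4.62 and -3.37 on the controls, -5.06, -7.09 and -5.14 under NiO, -2.15 to -1.74 under CuO and -3.01 to -1.44 under ZnO. NiO minus CuO was -3.83 (limma, adjusted p = 0.125) and NiO minus ZnO -3.35 (adjusted p = 0.409). Its fall against the controls (adjusted p = 0.0499) lost its call in 9 of the 12 left-out fits, and its difference of -1.87 was -1.20 without NiO 2.

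The aminopeptidase gene lnpep stood at 0.95, 0.28 and 1.06 on the controls, -0.14, -0.69 and -0.99 under NiO and 2.13, 1.90 and 1.23 under CuO, with NiO minus CuO at -2.36 (adjusted p = 0.097). Its call against the controls was lost without control 1 or 3, NiO 2 or NiO 3 (-1.28, -1.22, -1.33 and -1.18). Of the 5 probes of lnpep, 4 had this sign, and the differences ran from -3.03 to 0.24. For scamp5a, NiO minus ZnO was 2.65 (adjusted p = 0.317), and for ogfr2 it was -2.62 (adjusted p = 0.305), with the array values given in the report. None of these 5 differences between exposures passed the threshold in limma, and the doses of the metals differed.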

How the results depend on the processing

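Of 2811 genes called for NiO against control (2782 with separated arrays), the count stayed within 1.5 times under another percentile, ribosomal centring, quantile normalization, normexp on median signals (chosen after seeing the data, since the files hold no mean signal), both filters on dim probes, the mean of all probes, trend and robust settings, array weights, the slide block and the eye covariate. Ribosomal centring gave 794 rises and 1501 falls, so 34.6% of calls were rises against 46%. It moved the median difference of all genes from 0.27 to 0.087, and that of the gill epithelium list less that median stayed at 0.96, with 9 rises in place of 15. Fitting only the compared groups called 1503 genes (1501 separated), with fewer arrays to estimate the spread. The oocyte covariate, which runs closely with the exposure and cannot be told apart from it, called 0 and 0. The deposited series table read by its column names called 0 and 0, where 10 of 12 columns hold another array than in the scanner files. With 1 array left out the counts ran from 949 to 2939 (948 to 2917 separated). With the replicate block, which is also the slide block, 1200 genes rose and 1364 fell, and 1088 and 1327 of the original calls remained. Against the mean of CuO and ZnO, the count of 0 became 3 with the mean of all probes, 10 with array weights and 0 to 1 with 1 array left out. Where no cause is given, the cause was not tested.

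Some of the genes named with a size turned sign. With the mean of all probes these were asns (-0.39), hsd17b1 (-0.40), hspa5 (-0.77) and ldha (-0.073), whose probes disagree. Normexp turned gclc (0.0026), and array weights gclc (0.20) and il1b (-0.45). The oocyte covariate turned zp3f.1 (0.60), gtf3ab (1.79), zp2.3 (0.52), cldnd (0.52), retsatl (0.78), zp3a.1 (0.74), zp2.1 (0.46), zpcx (0.35), gclc (0.010), hspa5 (-0.33), epoa (0.84) and il1b (-0.40). Of these, gtf3ab is itself one of the genes that this covariate averages. The series table turned tdh2 (-0.25), and2 (-0.23), matn3a (-0.013), mt2 (0.27), tfr1a (1.33), gclc (0.26), vegfaa (-0.082) and trpv6 (-0.69). With 1 array left out, igfbp1a ran from -0.43 to 0.96, il1b from -0.71 to 1.1, gclc from -0.27 to 0.36 and hspa5 from -0.045 to 0.40. Of the other comparisons of named genes with an alternative, 3241 kept direction and call, 388 lost the call and 7 gained it. Dim probes limit the falls, since a level near background is only a bound.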
